A study of Homo sapiens with 12 samples.

Results

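The 10 transcripts examined here encode negative feedback inhibitors of MAP kinase signalling, and they were measured in head and neck squamous cell carcinoma (HNSCC) cells exposed to squamocin. They are the MAP kinase phosphatases DUSP1, DUSP4, DUSP5, DUSP6, DUSP8 and DUSP10 and the Sprouty and Spred proteins SPRY2, SPRY4, SPRED1 and SPRED2. The genes were chosen by name, with earlier results of these data known, and make up 10 of the 34227 genes listed for either cell line. All 10 were listed, and all 10 passed the filter of a mean of at least 10 normalized counts, in both cell lines. RNA-seq had been done on SCC15 and SCC25, human HNSCC lines of the oral cavity with a genotype given as WT. In each line, 3 libraries came from cells exposed to squamocin at 10 µg/mL and 3 from cells given the solvent DMSO, all taken at 24 h (12 libraries). The labels call the treatment ACGs, for annonaceous acetogenins, the family of plant compounds to which squamocin belongs. Both groups of a line are the same unmodified line, so each comparison stands for 1 line and 1 dose.

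Growth factors activate ERK through RAS, RAF and MEK, while stress activates the related kinases JNK and p38. Active MAP kinases induce their own inhibitors, which closes a negative feedback loop that limits the strength and length of the signal. The dual-specificity phosphatases (DUSPs) among these inhibitors remove the activating phosphates from MAP kinases, and individual enzymes differ in their place in the cell and in the kinase they prefer. Sprouty and Spred proteins act further upstream, at or near RAS and RAF, and Spred proteins bring the RAS-inactivating protein neurofibromin to the membrane. RNA levels alone were measured here, so neither the activity of a phosphatase nor the phosphorylation of a kinase is part of these data.

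Of the 10 genes, 8 had an entry in the RefSeq promoter table (GRCh38.p14), with 12 windows that run from 250 bases before to 50 bases after an annotated transcript start. The cAMP response element TGACGTCA, a sequence known to bind the CREB and ATF families of transcription factors, was searched on both strands along with its core TGACGT. TGACGTCA occurred in 1.85% of the 35116 windows of the table and in 2 of the 12 windows of these genes, those of DUSP1 and DUSP8. DUSP1 held it 125 bases before the start and DUSP8 held it at 118 and 74 bases before the start. The 3 sequences below are the 250 bases before the start, 5′ to 3′ on the minus strand, of the genes that have an entry and whose RNA was higher with squamocin in both lines. Capitals mark TGACGTCA or TGACGT. They lie at chr5:172771196-172771445 (DUSP1), chr11:1572272-1572521 (DUSP8) and chr1:221742090-221742339 (DUSP10, the first of its 2 windows). The starts are those of RefSeq, while the deposited gene bounds put the 5′ end of DUSP8 at 1571920 and that of DUSP10 at 221742176.
DUSP1: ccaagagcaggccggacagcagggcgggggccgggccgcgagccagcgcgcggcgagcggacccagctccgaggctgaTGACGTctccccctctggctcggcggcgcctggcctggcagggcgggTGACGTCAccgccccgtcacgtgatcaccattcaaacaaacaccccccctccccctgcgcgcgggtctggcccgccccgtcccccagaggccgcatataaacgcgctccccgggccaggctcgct
DUSP8: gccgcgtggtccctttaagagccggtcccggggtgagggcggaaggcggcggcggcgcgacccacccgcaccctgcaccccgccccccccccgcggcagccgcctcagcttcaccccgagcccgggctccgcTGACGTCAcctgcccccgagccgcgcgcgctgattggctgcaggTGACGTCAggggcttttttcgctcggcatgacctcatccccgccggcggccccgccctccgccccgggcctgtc
DUSP10: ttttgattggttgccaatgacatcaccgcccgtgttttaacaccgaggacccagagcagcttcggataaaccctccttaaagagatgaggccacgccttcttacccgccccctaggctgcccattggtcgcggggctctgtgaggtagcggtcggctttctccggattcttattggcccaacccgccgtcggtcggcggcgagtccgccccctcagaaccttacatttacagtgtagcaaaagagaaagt
DUSP1 held a further copy of the core 172 bases before the start, and DUSP10 held neither sequence in this window. The core TGACGT was in 7.98% of all windows and in 3 of the 12, the third being a window of SPRED2 with the match 30 bases after the start. The AP-1 sequence TGACTCA was in 4.95% of all windows and in 1 of the 12, a second window of SPRED2. TGATGCAA (ATF4 and C/EBP; 0.866% of all windows) and ACCGGAAG (ETS factors; 2.17% of all windows) were in 0 of the 12. Each match is a description of the letters, and no binding was measured.

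Each value is a normalized count, the number of reads on a gene after the authors' scaling of the library by its size factor, which they derived for each line on its own. The recovered reads numbered 16665563 to 22748845 per library, and between 91 reads (DUSP10) and 27291 reads (DUSP1) fell on any 1 of the 10 genes in a library. Totals of normalized counts were higher with squamocin than with DMSO, at 20467856 to 24626253 against 15466464 to 15535484 in SCC15 and 20917114 to 21265099 against 18245022 to 18333723 in SCC25. Setting the library totals equal instead moved the median log2 fold change of all genes tested by -0.49 in SCC15 and by -0.21 in SCC25, and the changes given below are on the authors' scaling, on which that median was 0.012 and -0.015. The share of reads on the mitochondrial genome was lower after squamocin, at 0.796% to 0.959% against 1.69% to 1.73% for SCC15 and at 2.45% to 3.50% against 4.37% to 4.54% for SCC25. Its part in the changes below was not tested, and in bulk RNA fewer cells of a kind cannot be told apart from less RNA per cell. Replicate 3 of squamocin in SCC15 stood apart from its group, with a chi-square per degree of freedom of 71.6 and 63.5 against replicates 1 and 2, where the other 10 pairs of replicates gave 1.72 to 11.02. All 7 squamous markers had a mean of at least 10 in SCC25. In SCC15 with DMSO, KRT5 (mean 9.497) and DSG3 (1.44) were near the floor and TP63 was low (17.5), while KRT17 (112298) and SFN (2424) were high. The summed squamous markers reached 208261 to 362488 with squamocin against 112494 to 118785 with DMSO in SCC15, and 45647 to 48181 against 22192 to 22655 in SCC25. The SCC15 sum was mostly KRT17 (mean 112298 to 260258), and KRT14 and SFN were also higher. KRT5, KRT6A (134 to 116), TP63 (17.5 to 10.5) and DSG3 were lower with squamocin in SCC15. In SCC25, KRT5 (5627 to 4748) and DSG3 (650 to 594) were lower. KRT17 (6064 to 18369), SFN (5157 to 15062), KRT14, KRT6A and TP63 were higher there. Markers of other cells summed to at most 34.2 for leukocytes (PTPRC at 0 in SCC25), 178 for endothelium and 59.3 for smooth muscle in a library. Those of fibroblasts summed to 892 to 1046 with squamocin against 574 to 609 with DMSO in SCC25, mostly COL1A1 with DCN at 0 under squamocin, and to at most 298 in SCC15. The part of these markers in the results was not tested.

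Squamocin was compared with DMSO within each line by limma on log2(normalized count + 1), two-sided, with Benjamini-Hochberg adjustment over all genes tested and a threshold of 0.05. In SCC15, 4 of the 10 transcripts rose, 5 fell and 1 did not pass the threshold. The background is high in these data, since 30.9% of the 15902 genes tested in SCC15 were called higher and 30% lower. In SCC25, 8 of the 10 rose and 2 fell, against 38.3% of 16539 genes called higher and 38.5% called lower. The median log2 fold change of the 10 transcripts was -0.085 in SCC15 and 1.24 in SCC25. DUSP1, DUSP5, DUSP8 and DUSP10 rose in both lines and DUSP4 fell in both, while SPRY2, SPRY4, SPRED1 and SPRED2 all fell in SCC15 and rose in SCC25. Of the 14454 genes tested in both lines, 22.1% rose in both, 18.6% fell in both and 4.66% fell in SCC15 and rose in SCC25. Each of the called transcripts had no overlap between the 3 squamocin and the 3 DMSO libraries of its line. Such separation was common, since 35.7% of all genes tested in SCC15 lay higher without overlap and 34.9% lower, and 39.4% and 39.6% did so in SCC25. The replicates are numbered samples of 1 line whose origin in separate cultures is not stated in the labels, so the p-values measure the spread between these libraries.

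**Figure D1:**
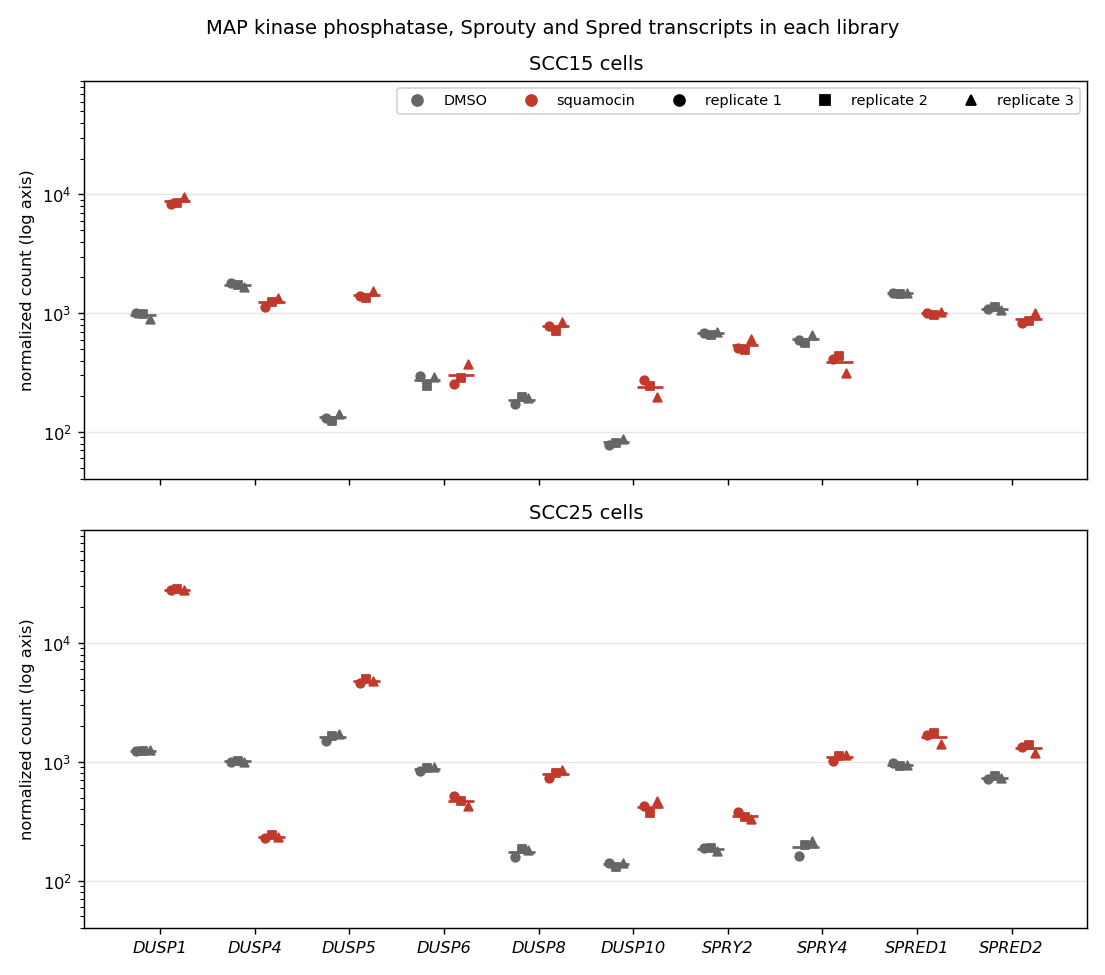
Normalized counts on a log axis for each of the 10 transcripts in every library, with SCC15 cells above and SCC25 cells below, DMSO in grey and squamocin in red, marker shapes for the replicate number and a bar for the mean of 3. DUSP1 lay at 8273 to 9504 with squamocin in SCC15 and at 27884 to 28380 in SCC25, against 892 to 1009 and 1227 to 1247 with DMSO.

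DUSP1, also known as MKP-1, is a nuclear phosphatase and an immediate early gene that dephosphorylates p38 and JNK as well as ERK. It lies at chr5:172768090-172771195 on the minus strand. In SCC15, the libraries with DMSO held 1009, 991 and 892 normalized counts and those with squamocin held 8273, 8519 and 9504. In SCC25, the DMSO libraries held 1227, 1231 and 1247 and the squamocin libraries held 27915, 28380 and 27884. The lowest squamocin library thus lay far above the highest DMSO library in either line, and the DMSO levels within each line were close together. The mean was 9.09-fold higher in SCC15 (log2 fold change 3.18, SE 0.095, adjusted p = 3.2e-06) and 22.7-fold higher in SCC25 (4.50, SE 0.036, adjusted p = 5.42e-16). Ranked by log2 fold change from the largest rise, DUSP1 was 124th of 15902 genes in SCC15 and 25th of 16539 in SCC25.

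DUSP5, at chr10:110497838-110511544 on the plus strand, encodes a nuclear phosphatase that is specific for ERK. The SCC15 libraries held 132, 124 and 142 normalized counts with DMSO and 1396, 1338 and 1543 with squamocin. In SCC25 the levels were 1496, 1651 and 1708 with DMSO and 4615, 4994 and 4745 with squamocin. Every squamocin library lay above every DMSO library of its line. The SCC15 libraries with squamocin held about as many counts as the SCC25 libraries with DMSO, although the tables of the lines were scaled separately and no level was tested between them. The mean was 10.7-fold higher in SCC15 (log2 fold change 3.41, SE 0.10, adjusted p = 3.2e-06), 96th of 15902 genes, and 2.96-fold higher in SCC25 (1.56, SE 0.055, adjusted p = 7.3e-11). The processed pseudogene DUSP5P1, which may share reads with DUSP5, went from a mean of 28.6 to 5.01 after squamocin in SCC15 and from 14.6 to 7.19 in SCC25. Adding its pseudogenes to DUSP5 gave an 8.80-fold difference in SCC15 and a 2.93-fold difference in SCC25.

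DUSP4, at chr8:29333064-29350668 on the minus strand, encodes a nuclear phosphatase closely related to DUSP1. On the authors' scaling it was the only one of the 10 transcripts called lower in both lines. With equal library totals DUSP6 was also called lower in SCC15 (-0.38), as it was in SCC25. For DUSP4, the DMSO libraries of SCC15 held 1791, 1712 and 1671 normalized counts and the squamocin libraries 1127, 1255 and 1345. In SCC25 they held 1002, 1025 and 998 with DMSO and 230.1, 240.2 and 230.9 with squamocin. The groups did not overlap in either line, and the SCC25 replicates of each treatment lay close together. The mean was 1.39-fold lower in SCC15 (log2 fold change -0.48, SE 0.093, adjusted p = 0.00353) and 4.32-fold lower in SCC25 (-2.10, SE 0.064, adjusted p = 2.29e-11). Among the nuclear phosphatases, DUSP1 and DUSP5 thus moved in the opposite direction from DUSP4.

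DUSP6, also known as MKP-3, is the cytoplasmic phosphatase of ERK and a transcript commonly used as a readout of ERK activity. It lies at chr12:89347232-89353271 on the minus strand. In SCC15 the levels were 299, 242 and 290 with DMSO and 254, 285 and 371 with squamocin, and the groups overlapped. The log2 fold change was 0.12 (95% interval -0.26 to 0.50, adjusted p = 0.551), and it was -0.38 (adjusted p = 0.0345) with equal library totals and -0.035 without squamocin replicate 3, so its sign in SCC15 turned with the setting. In SCC25 the libraries held 829, 895 and 902 normalized counts with DMSO and 519, 467 and 425 with squamocin. The mean was 1.86-fold lower in SCC25 (-0.90, SE 0.077, adjusted p = 2.95e-07).

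DUSP8 and DUSP10 encode phosphatases that prefer the stress kinases JNK and p38, and both rose in both lines. DUSP8 (chr11:1554044-1571920, minus strand) held 171, 196 and 192 normalized counts with DMSO and 781, 706 and 842 with squamocin in SCC15. In SCC25 it held 159.6, 184 and 179.7 with DMSO and 731, 800 and 847 with squamocin. The means differed 4.17-fold in SCC15 (log2 fold change 2.05, SE 0.11, adjusted p = 1.77e-05) and 4.54-fold in SCC25 (2.18, SE 0.087, adjusted p = 2.32e-10). The groups did not overlap in either line. The processed pseudogene DUSP8P5 moved the other way, from a mean of 52.1 with DMSO to 27.1 with squamocin in SCC15 and from 79.4 to 31.4 in SCC25. DUSP8 summed with its pseudogenes and the antisense gene KRTAP5-AS1 differed 3.32-fold in SCC15 and 3.18-fold in SCC25. How many reads these genes share was not measured here.

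DUSP10 (chr1:221701424-221742176, minus strand), also known as MKP-5, held 77.6, 80.6 and 88.2 normalized counts with DMSO and 272, 245 and 199 with squamocin in SCC15. In SCC25 it went from 139, 130.4 and 141 with DMSO to 423, 369 and 466 with squamocin. Every squamocin library lay above every DMSO library of its line. The mean was 2.91-fold higher in SCC15 (log2 fold change 1.52, SE 0.15, adjusted p = 0.000179) and 3.07-fold higher in SCC25 (1.60, SE 0.10, adjusted p = 1.84e-08).

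The Sprouty transcripts moved in opposite directions in the 2 lines. SPRY2, at chr13:80335976-80340951 on the minus strand, held 687, 653 and 696 normalized counts with DMSO and 507, 487 and 612 with squamocin in SCC15. In SCC25 it held 189, 189.8 and 177 with DMSO and 379, 346 and 331 with squamocin. In SCC15 the highest squamocin library lay just below the lowest DMSO library, whereas the SCC25 groups were well apart. The mean was 1.27-fold lower in SCC15 (log2 fold change -0.35, SE 0.11, adjusted p = 0.0265) and 1.90-fold higher in SCC25 (0.92, SE 0.090, adjusted p = 1.03e-06). The SCC15 call was lost when any 1 library other than squamocin replicate 3 was left out (adjusted p 0.0635 to 0.096). The log2 fold change in those fits was -0.38 to -0.28. Without squamocin replicate 3 the call held (log2 fold change -0.45, adjusted p = 4.95e-06).

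SPRY4, at chr5:142310427-142326455 on the minus strand, showed the larger contrast of the Sprouty pair. In SCC15 it held 594, 559 and 656 normalized counts with DMSO and 413, 435 and 314 with squamocin. In SCC25 it held 160.4, 199 and 214 with DMSO and 1019, 1122 and 1139 with squamocin. The DMSO level was thus the higher one in SCC15 and the squamocin level in SCC25, with no overlap in either line. The mean was 1.56-fold lower in SCC15 (log2 fold change -0.65, SE 0.14, adjusted p = 0.00597) and 5.72-fold higher in SCC25 (2.52, SE 0.10, adjusted p = 2.36e-10). The overlapping antisense gene SPRY4-AS1 went from a mean of 16.5 to 10.7 in SCC15 and from 4.02 to 13.9 in SCC25, at most 2.76% of SPRY4, and reads of the 2 strands cannot be told apart here because the strand setting of the counting is not given.

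The Spred transcripts followed the same directions as the Sprouty transcripts. SPRED1 (chr15:38252326-38357249, plus strand), whose loss causes Legius syndrome, held 1472, 1461 and 1470.1 normalized counts with DMSO and 1012, 975 and 1019 with squamocin in SCC15. In SCC25 it held 984, 921 and 943 with DMSO and 1666, 1749 and 1403 with squamocin. SPRED2 (chr2:65310851-65432637, minus strand), its close relative, held 1092, 1122 and 1069 with DMSO and 829, 865 and 999 with squamocin in SCC15. Both transcripts were lower in all squamocin libraries of SCC15, with the SPRED2 groups closer together. SPRED2 in SCC25 held 712, 762 and 736 with DMSO and 1345, 1389 and 1176 with squamocin. SPRED1 was 1.46-fold lower in SCC15 (log2 fold change -0.55, SE 0.075, adjusted p = 0.00068) and 1.69-fold higher in SCC25 (0.75, SE 0.074, adjusted p = 1.07e-06). SPRED2 was 1.22-fold lower in SCC15 (-0.29, SE 0.096, adjusted p = 0.0323) and 1.77-fold higher in SCC25 (0.82, SE 0.067, adjusted p = 1.87e-07). The SPRED2 call in SCC15 was lost when any 1 library other than squamocin replicate 3 was left out (adjusted p 0.0858 to 0.113) and held without squamocin replicate 3 (log2 fold change -0.37, adjusted p = 6.67e-06).

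**Figure D2:**
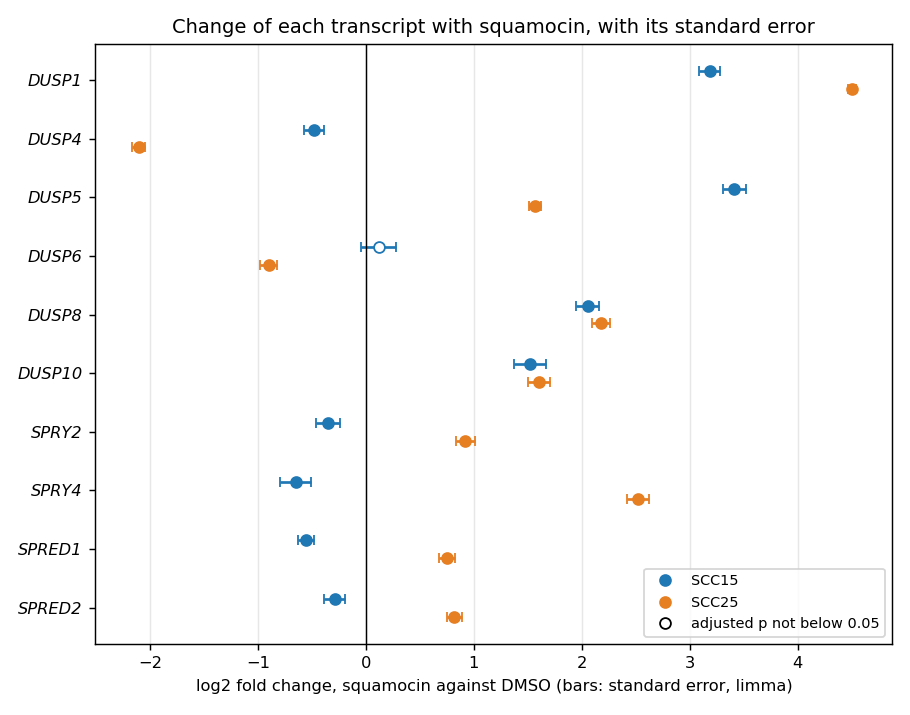
Log2 fold change of squamocin against DMSO for each transcript, with SCC15 in blue, SCC25 in orange, bars for the standard error from limma and an open point where the adjusted p was not below 0.05. The Sprouty and Spred transcripts lie below 0 in SCC15 (-0.65 to -0.29) and above 0 in SCC25 (0.75 to 2.52), and DUSP6 in SCC15 is the open point, whose sign turns with equal library totals.

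Whether the response differed between the lines was tested directly, as the log2 fold change in SCC15 minus that in SCC25 in 1 limma fit of all 12 libraries. The difference passed the threshold for 8 of the 10 transcripts. Among all 14454 genes, the log2 change was greater in SCC15 for 26.1% and greater in SCC25 for 26%. SPRY4 differed most, by -3.17 (SE 0.19, adjusted p = 8.82e-08), and 48 of the 14454 genes had a lower value. The other Sprouty and Spred transcripts differed by -1.27 (SPRY2, SE 0.14), -1.30 (SPRED1, SE 0.11) and -1.11 (SPRED2, SE 0.12), with adjusted p of 9.65e-06, 1.39e-06 and 1.01e-05. DUSP1 also rose more in SCC25, by a difference of -1.32 (SE 0.10, adjusted p = 5.26e-07). In the other direction, DUSP5 rose more in SCC15, by 1.85 (SE 0.12, adjusted p = 1.1e-07). DUSP4 fell less in SCC15 than in SCC25, by 1.63 (SE 0.10, adjusted p = 1.34e-07), and DUSP6 differed by 1.02 (SE 0.19, adjusted p = 0.000648). No difference was called for DUSP8, at -0.12 (95% interval -0.43 to 0.19, adjusted p = 0.492), or for DUSP10, at -0.085 (-0.49 to 0.32, adjusted p = 0.726). With equal library totals the DUSP8 difference was called, at -0.41 (adjusted p = 0.0233).

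Without squamocin replicate 3 of SCC15, the library that stood apart, 4 transcripts were again called higher and 5 lower in SCC15, and 3 and 5 were again called in the difference between the lines. More of all genes were called without it, at 38.4% higher and 37.2% lower in SCC15, and at 32.5% greater in SCC15 and 33.4% greater in SCC25 for the difference. The log2 fold changes in SCC15 were then 3.12 for DUSP1, 3.35 for DUSP5, 1.99 for DUSP8, 1.64 for DUSP10, -0.54 for DUSP4, -0.45 for SPRY2, -0.50 for SPRY4, -0.56 for SPRED1 and -0.37 for SPRED2. The DUSP10 difference between the lines was then 0.040, still not called (adjusted p = 0.846). The 9 calls of SCC15 thus held without that library, with the fall of SPRY4 smaller (-0.65 with it) and those of SPRY2 (-0.35) and SPRED2 (-0.29) larger.

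**Figure D3:**
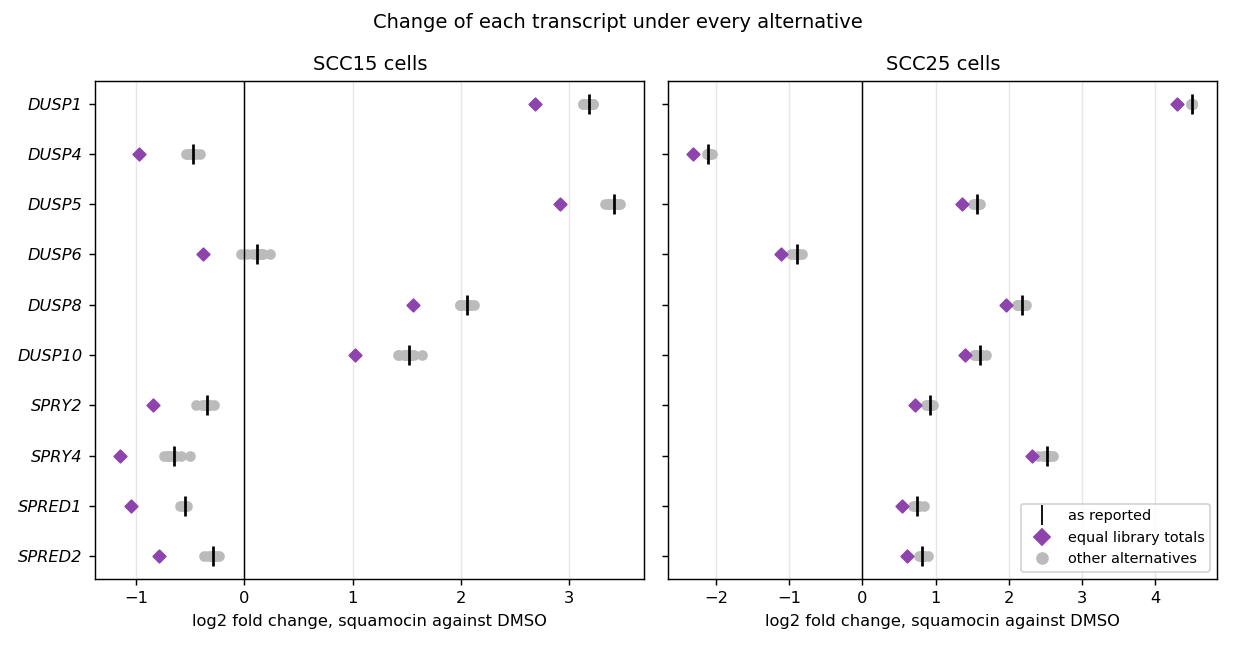
Log2 fold change of squamocin against DMSO in SCC15 (left) and SCC25 (right) for each transcript, with a black bar for the reported value, purple diamonds for equal library totals and grey circles for every other alternative fit. Equal library totals moved all SCC15 values down by about the shift of the median gene (-0.49), and only DUSP6 in SCC15 crossed 0, with equal library totals (-0.38) and without squamocin replicate 3 (-0.035).

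To compare the abundance of different genes, normalized counts were divided by the exonic length in kilobases (GENCODE release 44), and all levels in the next sentences are on that scale. In SCC15 with DMSO, DUSP1 was the highest, at 479 ± 31.3 (SD, n = 3), followed by DUSP4 at 237 ± 8.37, SPRY2 at 211 ± 7.002, SPRED2 at 199 ± 4.86 and SPRED1 at 189 ± 0.732. SPRY2 and SPRED2 overlapped, and the other neighbours among these did not. SPRY4 (92.0 ± 7.47), DUSP6 (71.7 ± 7.90), DUSP5 (52.4 ± 3.59), DUSP8 (37.6 ± 2.76) and DUSP10 (29.1 ± 1.92) followed without overlap. With squamocin the order in SCC15 changed, with DUSP1 at 4354 ± 323 and DUSP5 next at 562 ± 41.6. DUSP4 (171 ± 15.1), SPRY2 (167 ± 21.0), SPRED2 (163 ± 16.3) and DUSP8 (157 ± 13.8) came next, each overlapping its neighbour. SPRED1 stood at 129 ± 3.08, and DUSP10 (84.5 ± 13.1), DUSP6 (78.6 ± 15.7) and SPRY4 (59.1 ± 9.89) were lowest and overlapped in turn.

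In SCC25 with DMSO, DUSP5 (638 ± 43.4 per kilobase) and DUSP1 (614 ± 5.36) were highest and overlapped, followed by DUSP6 at 227 ± 10.4. DUSP4 (139 ± 2.02) and SPRED2 (134 ± 4.57) overlapped, then came SPRED1 (122 ± 4.13), SPRY2 (57.6 ± 2.19), DUSP10 (48.4 ± 1.99), DUSP8 (35.2 ± 2.66) and SPRY4 (29.2 ± 4.23), of which the last pair overlapped. With squamocin DUSP1 stood at 13939 ± 138 and DUSP5 at 1887 ± 75.9, and every other transcript lay far below. SPRED2 (237 ± 20.5) and SPRED1 (207 ± 23.3) overlapped, and SPRY4 (167 ± 9.88), DUSP8 (159.8 ± 11.8), DUSP10 (148 ± 17.2), DUSP6 (122 ± 12.1) and SPRY2 (109.5 ± 7.61) formed a run in which neighbours overlapped. DUSP4 was lowest of all, without overlap, at 32.1 ± 0.775. By the means, DUSP4 thus went from the fourth place to the last, and SPRY4 from the last to the fifth.

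The summed level of the 10 transcripts per kilobase went from 1598 ± 29.7 (SD, n = 3) to 5925 ± 416 with squamocin in SCC15 and from 2044 ± 63.2 to 17009 ± 227 in SCC25. DUSP1 made up 30.0% ± 1.58 of this sum with DMSO and 73.5% ± 0.490 with squamocin in SCC15. In SCC25 its share was 30.0% ± 0.740 with DMSO and 82.0% ± 0.281 with squamocin. The pool therefore came to be made up mainly of DUSP1 in both lines. An exact permutation test of 3 libraries against 3, two-sided, gave p = 0.1 for DUSP1 in each line, the smallest p this design allows. The share of DUSP5 went from 3.28% ± 0.252 to 9.49% ± 0.283 in SCC15 and from 31.2% ± 1.17 to 11.1% ± 0.311 in SCC25 (exact p = 0.1 in each), although its own level rose in both lines. The shares of DUSP8 (2.35% and 2.64%) and DUSP10 (1.82% and 1.44%) in SCC15, given for DMSO and squamocin in turn, differed by less than a percentage point (exact p = 0.2 in each). In SCC25 the share of DUSP8 went from 1.72% to 0.939% and that of DUSP10 from 2.37% to 0.873% (exact p = 0.1 in each). The levels of DUSP8 and DUSP10 themselves rose in SCC25.

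**Figure D4:**
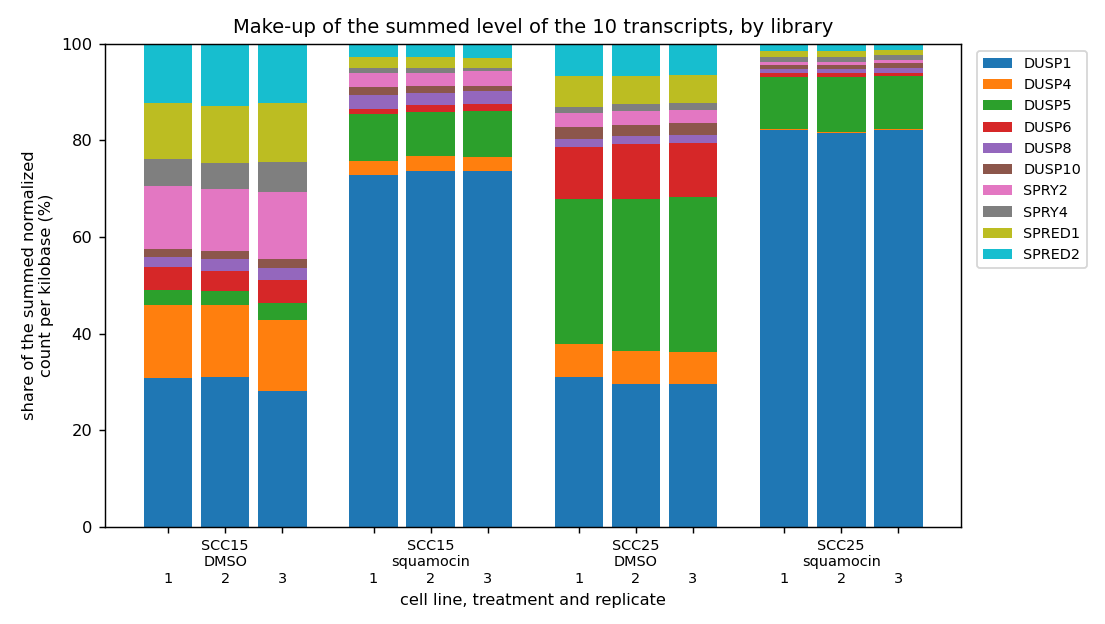
Stacked bars of the share (%) of each transcript in the summed normalized count per kilobase of the 10, 1 bar per library, grouped by cell line and treatment. DUSP1 (blue) is 30.0% of the sum with DMSO in both lines and 73.5% (SCC15) or 82.0% (SCC25) with squamocin.

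Other phosphatases and Sprouty genes outside the 10 did not share 1 direction. Of the other MAP kinase phosphatases DUSP2, DUSP7, DUSP9 and DUSP16, 2 rose and 1 fell in SCC15, and 1 rose and 2 fell in SCC25. Both directions were common among all genes tested, with 30.9% called higher and 30% lower in SCC15, and 38.3% and 38.5% in SCC25. DUSP7, a cytoplasmic ERK phosphatase related to DUSP6, rose in both lines, from a mean of 463 to 1149.9 normalized counts in SCC15 (log2 fold change 1.31) and from 760 to 3236 in SCC25 (2.09). DUSP9, another cytoplasmic relative, rose from 32.3 to 109 in SCC15 (1.74) and fell from 81.4 to 11.8 in SCC25 (-2.69), a difference of 4.43 (adjusted p = 2.88e-07). DUSP2, a nuclear enzyme, fell from 587 to 212 in SCC25 (-1.47) and moved without a call by 0.67 on the log2 scale in SCC15 (adjusted p = 0.0752). DUSP16, which acts on JNK, fell in SCC15 (-0.68) and had a log2 fold change of -0.086 in SCC25 (adjusted p = 0.221), a difference of -0.59 (adjusted p = 0.000319). SPRY1, SPRY3 and SPRED3, the remaining genes of the family, held a mean of at most 102 normalized counts with DMSO in SCC15. SPRY1 rose in SCC15 (18.6 to 39.4, log2 fold change 1.02) and fell in SCC25 (411 to 268, -0.61). SPRY3 fell in SCC15 (-0.83) and had a log2 fold change of 0.25 in SCC25 (adjusted p = 0.221), and SPRED3 fell in both (-1.32 and -0.37). SPRY1 thus had the opposite pattern from SPRY2 and SPRY4, with its rise in SCC15 lost with equal library totals (0.54, adjusted p = 0.191). Several limma calls of these low transcripts were lost when 1 library was left out and fewer samples remained, with the direction kept. In SCC15, SPRY1 lost its call without DMSO replicate 1 or 3 or squamocin replicate 1 or 2 (adjusted p = 0.0553 to 0.0723), and SPRY3 and SPRED3 lost theirs without any 1 of the DMSO libraries (0.0587 to 0.0853 and 0.053 to 0.068). In SCC25, SPRED3 lost its call without any 1 of the DMSO libraries or squamocin replicate 2 (0.0677 to 0.121), and also with all libraries in DESeq2 on recovered reads (0.0825) and with all genes above 0 tested (0.0524). DUSP2 in SCC15 was called higher without squamocin replicate 1 or 3 (0.90 and 0.72), and DUSP16 in SCC25 was called lower with equal library totals (-0.29).

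Among 16 genes of the RAS-ERK cascade, 7 rose and 4 fell in SCC15 and 9 rose and 4 fell in SCC25, with median log2 fold changes of 0.31 and 0.32 (all genes tested, 0.012 and -0.015). The largest changes in SCC15 were a rise of RRAS, a RAS-related GTPase (983 to 3320 normalized counts, log2 fold change 1.73), and a fall of SOS1, an exchange factor that loads RAS with GTP (755 to 238, -1.67). RRAS in the squamocin libraries of SCC15 ranged from 2685 to 4309. In SCC25 the largest changes were rises of NRAS, a RAS isoform (1559 to 4266, 1.45), and SHOC2, a scaffold that promotes RAF activation (638 to 1254, 0.96). Among 16 genes of the JNK and p38 cascade, 6 rose and 3 fell in SCC15 and 8 rose and 5 fell in SCC25, with medians of 0.15 and 0.21. MAP2K6, a kinase that activates p38, fell from 75.7 to 8.75 in SCC15 (-3.03, SE 0.30) and from 23.7 to 4.32 in SCC25 (-2.40, SE 0.51). Its squamocin libraries were near the floor, at 5.70 to 12.4 normalized counts in SCC15 and 1.04 to 6.36 in SCC25. The size of the MAP2K6 falls is therefore uncertain. MAP3K1, an upstream kinase of JNK, fell in both lines (-1.16 in SCC15 and -0.41 in SCC25). MAP2K3, the other main activator of p38, rose in both, from 1510 to 2806 in SCC15 (0.89) and from 1827 to 4226 in SCC25 (1.21). Of all genes tested on the authors' scaling, 30.9% were called higher and 30% lower in SCC15, and 38.3% and 38.5% in SCC25. With equal library totals the RAS-ERK cascade held 6 genes that rose and 8 that fell in SCC15 and 8 and 6 in SCC25. The JNK and p38 cascade held 3 and 7 in SCC15 and 7 and 7 in SCC25. That scaling called 2357 of all 15902 genes higher and 8033 lower in SCC15, and 5032 and 7839 of 16539 in SCC25.

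Genes known to respond to ERK moved in both directions. Of 10 listed, 9 were tested in each line, of which 6 rose and 3 fell in SCC15 and 6 rose and 2 fell in SCC25, with medians of 0.50 and 0.29. For all genes tested the calls were 30.9% higher and 30% lower in SCC15, and 38.3% and 38.5% in SCC25. EGR1, an immediate early transcription factor, fell from 433 to 52.1 normalized counts in SCC15 (log2 fold change -3.04) and from 38765 to 2122 in SCC25 (-4.19). IER3, an immediate early gene that modulates cell survival, rose from 1706 to 17849 in SCC15 (3.34) and from 7168 to 26873 in SCC25 (1.91). The SCC15 libraries with squamocin were spread widely for IER3, from 13800 to 24352 with a median of 15395. The immediate early transcripts EGR1 and IER3 thus moved in opposite directions, and DUSP1, itself an immediate early gene, rose as IER3 did. Of 11 other inhibitors of RAS-ERK signalling, 3 rose and 4 fell in SCC15 and 6 rose and 4 fell in SCC25, with medians of 0.038 and 0.17. ERRFI1, an inhibitor of EGFR, rose in SCC15 (1278 to 3182, 1.31) and fell in SCC25 (4366 to 3906, -0.16, adjusted p = 0.00359), a difference of 1.47 (adjusted p = 1.34e-07). IL17RD, a membrane inhibitor of fibroblast growth factor signalling also called SEF, fell in SCC15 (-0.83) and in SCC25 (-1.13). DAB2IP, a RAS GTPase-activating protein, also fell in both lines, in SCC15 (1012 to 572, -0.82) and in SCC25 (2857 to 1217, -1.23). With equal library totals, SCC15 had 4 ERK-responsive genes that rose and 3 that fell, against 4 and 2 in SCC25. On that scaling 1 of the other inhibitors rose and 7 fell in SCC15, while 3 rose and 5 fell in SCC25. Of all genes it called 2357 of 15902 higher and 8033 lower in SCC15, and 5032 and 7839 of 16539 in SCC25. The lists were written with earlier results of these data known.

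**Figure D5:**
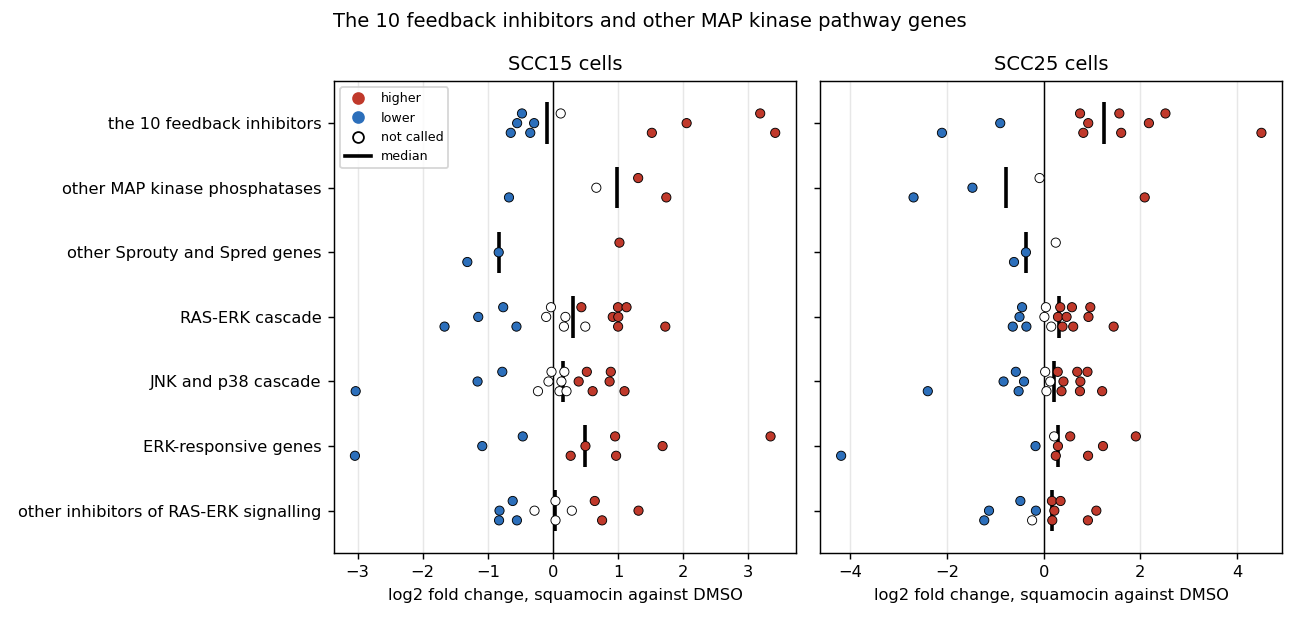
Log2 fold change of squamocin against DMSO for the 10 feedback inhibitors and for each list of pathway genes in SCC15 (left) and SCC25 (right), with called genes in red (higher) or blue (lower), uncalled genes open and a black bar for the median of the list. The median of the 10 was -0.085 in SCC15 and 1.24 in SCC25, and that of the RAS-ERK cascade was 0.31 and 0.32.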

How the data were processed

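RNA-seq of SCC15 and SCC25 cells (3 libraries with squamocin and 3 with DMSO in each line) was re-analysed from deposited gene tables. The submitters' processing notes name HISAT2 2.0.5, featureCounts 1.5.0-p3 and GRCh38 (hg38). The deposited signal per gene is a count of reads scaled by the authors with a size factor for each library, derived for each line on its own, and times that factor every value came out as a whole read (tolerance 0.01). The SCC25 columns are headed FPKM, but their values are whole multiples of 1 step per library for genes of every length, so they were read as normalized counts. The authors' own fold changes and p-values were not used.

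Genes with a mean of at least 10 were tested on log2(normalized count + 1) with limma 3.58.1 (R 4.3.3, trended eBayes), with Benjamini-Hochberg adjustment over all genes tested. The contrast of the 4 group means used the 14454 genes tested in both lines. The alternatives were pseudocounts of 0.1 and 10, 2 other filters, equal library totals, TMM factors, DESeq2 1.42.0 or edgeR 4.0.16 fitted to recovered reads, a replicate block and each library left out in turn. Leaving libraries out of the DUSP1 share was chosen after seeing the data. The scripts were tested on simulated data. Marker lists for squamous epithelium, leukocytes, endothelium, fibroblasts and smooth muscle served as a check of the labels.

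The 10 genes and the lists were chosen with earlier results of these data known. Of each other list, the 2 genes with the largest called change in each line are named, and all genes of lists of 4 or fewer, as are genes that overlap 1 of the 10 or are their pseudogenes where they bear on a value.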

Additional observations from a re-analysis of the deposited data

Results flagged for a closer look

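The response to squamocin differed between SCC15 and SCC25 for 8 of the 10 transcripts in the limma contrast of the group means, adjusted over 14454 genes, of which 26.1% had a greater log2 change in SCC15 and 26% in SCC25. The log2 fold change in SCC15 minus that in SCC25 was -3.17 for SPRY4, -1.30 for SPRED1, -1.27 for SPRY2 and -1.11 for SPRED2, each of which fell in SCC15 and rose in SCC25. It was -1.32 for DUSP1 and 1.85 for DUSP5, which rose in both lines. It was 1.63 for DUSP4, which fell in both, and 1.02 for DUSP6, which fell in SCC25 and was not called in SCC15. Groups of 3 libraries are too small for a test of single outlying libraries.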

How the results depend on the processing

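Of 510 alternative values for the 10 transcripts, 495 kept their direction and their side of the threshold, and all 150 in SCC25 did. In SCC15, the number of transcripts called lower was 5 as reported and ranged from 3 to 5 with 1 library left out, since SPRY2 and SPRED2 lost their calls (11 values in SCC15 lost a call in all). It was 3 without any 1 of the DMSO libraries or squamocin replicate 1 or 2. Fewer of all 15902 genes were also called lower in those fits, against 4773 as reported. The number was 3693 to 3726 without a DMSO library, and 4415 to 4537 without squamocin replicate 1 or 2. With equal library totals DUSP6 in SCC15 reversed to -0.38 and was called (adjusted p = 0.0345), NRAS in SCC15 went from 0.19 to -0.31, and the DUSP8 difference was called. DUSP6 in SCC15 was -0.035 without squamocin replicate 3. Across all alternatives, the change of DUSP1 ranged from 2.68 to 3.22 in SCC15 and from 4.30 to 4.51 in SCC25, and that of SPRY4 from -1.15 to -0.50 and from 2.31 to 2.61.

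The count of all genes called also moved with equal library totals, from 4921 higher and 4773 lower to 2357 and 8033 in SCC15, from 6335 and 6367 to 5032 and 7839 in SCC25, and in the difference from 3779 and 3761 to 2396 and 5452. With 1 library left out, the DUSP1 share of the summed level rose by 42.6 to 44.04 percentage points in SCC15 and by 51.7 to 52.3 in SCC25. The same replicate numbers did not mark pairs (correlation of deviations -0.051 to 0.0078). With the replicate number as a block, SPRED2 in SCC15 (-0.29, adjusted p = 0.0755) lost its call, so 4 transcripts were called lower there, and no other call of the 10 changed. Fewer of all 15902 genes were also called in SCC15 with the block, at 4665 higher and 4451 lower against 4921 and 4773 as reported.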
